A study of Homo sapiens with 4 samples.

Results

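The genes described here are 10 members of the bone morphogenetic protein (BMP) pathway in KGN cells, an established line from a human granulosa cell tumour. They are the ligands BMP2, BMP4, BMP6 and BMP7, the ID proteins ID1, ID2, ID3 and ID4, and the inhibitory SMADs SMAD6 and SMAD7. They were chosen by name with earlier results of these data known, so their shares beside all genes are descriptive. All 10 were measured, each by 1 probe set, among the 17687 genes named on the Clariom S Human array. Cells had been transfected with control siRNA at 10 nM (siNC) or with siRNAs against YAP and TAZ at 5 nM each (siYT), which are transcriptional coactivators held in check by the Hippo kinases. After 48 h they were given medium without or with 0.5 mM 8Br-cAMP, an analogue of cyclic AMP that enters cells, for a further 24 h. Each of the 4 combinations, siNC, siNC+8Br-cAMP, siYT and siYT+8Br-cAMP, was measured on 1 array, so no difference between 2 arrays has a replicate check. As a model, KGN is a single tumour-derived line, and siRNA lowers its targets without removing the genes.

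BMP ligands bind pairs of type I and type II receptor kinases, which phosphorylate SMAD1, SMAD5 and SMAD9; these enter the nucleus with SMAD4. The ID genes are among the best known direct targets. ID proteins have a helix-loop-helix domain but no DNA-binding region, and they hold E proteins such as TCF3, TCF4 and TCF12 away from DNA. SMAD6 and SMAD7 are induced by the same pathways and act back on the receptors, SMAD6 mainly in BMP signalling and SMAD7 in both BMP and TGF-beta signalling. In the ovary, BMPs from granulosa and theca cells act on growing follicles and are known to modulate steroid synthesis.

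Values are deposited log2 signals, and levels of different genes are not compared because each rests on its own probes. The deposited values reached 19.36, above what a 16-bit scanner can give on a log2 scale, so they may have been rescaled after summarisation and a fold computed from them may not be a ratio of signals. A gene was called in a comparison when the log2 difference was at least 1, which is 2-fold, and the higher array reached the level filter of 6.22, the median over all genes and arrays. A secondary test came from an additive limma model of the siRNA and the medium; its error comes from 1 residual degree of freedom, moderated over all genes, and holds any interaction of the treatments as well as noise. Rose and fell are used below for genes past an adjusted p of 0.05 in it.

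The siRNA targets were lower on both siYT arrays. YAP1 measured 9.48 in siNC against 6.80 in siYT, and with 8Br-cAMP 9.46 against 6.29. WWTR1, which encodes TAZ, was at 7.58 and 5.45, and at 9.13 and 5.35. Of the granulosa markers, GATA4 (9.88 to 11.65) and INHBA (11.09 to 15.08) were above the filter on all arrays and CYP19A1, the aromatase, on 3 (5.04 in siNC, 14.26 in siNC+8Br-cAMP, 14.26 in siYT and 17.56 with both). FOXL2, INHA, LHCGR and AMHR2 stayed under it, and FSHR (3.82 to 6.63) and NR5A1 (5.42 to 6.35) came no more than slightly above it. Of the 9 granulosa markers, 3 were called higher in siYT in each medium and 0 lower, and 2 were called higher with 8Br-cAMP after each siRNA. The summed level of the 9 ran from 11.86 in siNC to 17.82 in siYT+8Br-cAMP. INHBA alone was at 11.36 in siNC and CYP19A1 alone at 17.56 in siYT+8Br-cAMP, so these genes set most of that range. All 7 proliferation markers were called lower in siYT without 8Br-cAMP and 6 with it, and the 2197 positive control probe sets had a median difference of -0.36 and -0.35. Of 6 theca and stromal markers, 4 were called higher in siYT without and 2 with 8Br-cAMP; LUM was 5.34 and 4.45 higher and DCN 3.38 and 3.86. Their summed level, which COL1A1 and COL1A2 dominate, lay between 13.91 and 14.99, and CYP17A1 stayed under the filter. The endothelial and epithelial markers lay under the filter apart from KDR at 6.31 in siNC, as did the leukocyte genes PTPRC, CD3E and LYZ, while CD68 was called higher in siYT in both media (1.92 and 2.82). The part of these shifts in the results below was not tested.

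Most members were higher in siYT than in siNC when 8Br-cAMP was absent, and few were when it was present. Without 8Br-cAMP, 6 of the 10 members were called higher in siYT (BMP4, BMP6, ID2, ID3, SMAD6 and SMAD7), against 7.60% of all genes, and 0 were called lower, against 7.32%. With 8Br-cAMP, 1 was called higher (BMP6; 5.52% of all genes) and 2 lower (ID1 and SMAD6; 5.94% of all genes). The median difference of the members was 1.33 without and -0.11 with 8Br-cAMP, beside 0.02 and 0.06 over all genes. Most members were also at least 2-fold higher with 8Br-cAMP after siNC, and fewer after siYT. After siNC 7 members were called higher (BMP4, BMP6, ID1, ID2, ID3, ID4 and SMAD6; 4.32% of all genes) and 0 lower (3.74%). After siYT 2 were called higher (BMP6 and ID3; 4.06%) and 1 lower (SMAD7; 4.15%), while ID1 (0.99), ID4 (0.94) and ID2 (0.79) lay just short of the limit. With a limit of 1.5-fold these 3 were called as well, and 5 members were higher after siYT against 7 after siNC. At that limit 1706 of all 17687 genes were called higher after siYT and 1888 after siNC. The median was 1.62 after siNC and 0.19 after siYT, beside -0.03 and -0.02 over all genes. Because the members were chosen with earlier results known, these shares and medians do not test an excess over all genes. The siRNA comparison without 8Br-cAMP and the 8Br-cAMP comparison after siNC share the siNC array, so a low value on that array enters both. By the additive limma model 3 members rose with the siRNA (BMP6, ID2 and SMAD7), against 4.30% of all genes, and 0 fell, against 4.67%. With 8Br-cAMP 2 rose (BMP6 and ID3), against 1.15%, and 0 fell, against 0.662%. The unadjusted p of this model was under 0.05 for 3 members with the siRNA, beside 3923 of all 17687 genes. With 8Br-cAMP it was under 0.05 for 6 members, beside 2607 of all genes. BMP2, among these, was lower (-1.05) and lay under the level filter. When the values were taken as log2 of the linear value plus 32, the model called 0 of all 17687 genes, and so 0 members, for either factor.

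**Figure D1:**
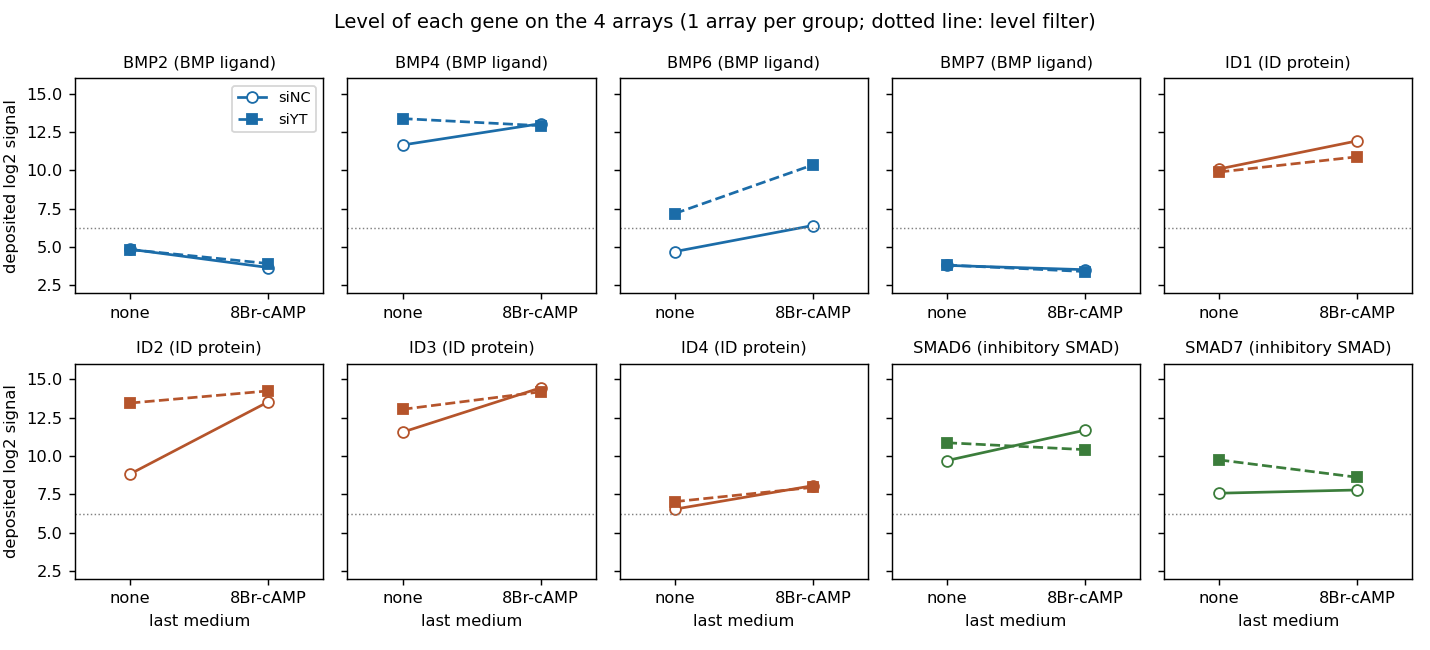
The deposited log2 signal of each member is plotted against the last medium, with open circles for the siNC arrays and filled squares for the siYT arrays, and the level filter of 6.22 as a dotted line. ID2 is low on the siNC array alone, at 8.84, BMP6 is highest on the siYT+8Br-cAMP array, at 10.36, and the lines of SMAD6 cross.

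BMP6 was the only ligand called higher in siYT in both media. This ligand signals mainly through ACVR1 and is best known for the induction of hepcidin in the liver; it is also made by oocytes and granulosa cells. It was at 4.71 in siNC, 6.41 in siNC+8Br-cAMP, 7.19 in siYT and 10.36 in siYT+8Br-cAMP. Each treatment alone gave a higher level than siNC, and the array with both was the highest. The siRNA difference was 2.48 (5.59-fold) without and 3.94 (15.4-fold) with 8Br-cAMP. The 8Br-cAMP difference was 1.70 (3.26-fold) after siNC and 3.17 (8.97-fold) after siYT. In the additive limma model BMP6 rose with the siRNA by 3.21 (SE 0.382, adjusted p = 0.00067) and with 8Br-cAMP by 2.43 (SE 0.382, adjusted p = 0.0102). BMP6 lay under the 95th percentile of its own array's negative controls in siNC (6.94), siNC+8Br-cAMP (6.53) and siYT (7.29). Only the siYT+8Br-cAMP array had it above that percentile (6.98). Both siRNA folds and both 8Br-cAMP folds therefore depend on the background. As log2 of the linear value plus 32, the siRNA difference was 1.62 in plain medium and 3.52 under 8Br-cAMP. On that scale 8Br-cAMP added 2.91 in siYT cells and 1.01 in siNC cells. On the deposited scale this last comparison was not called with the filter at 6.95, the same percentile over all 4 arrays.

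BMP4, a ligand of theca and stromal cells in the ovary, had a different pattern. It was at 11.66 in siNC, 13.05 in siNC+8Br-cAMP, 13.38 in siYT and 12.92 in siYT+8Br-cAMP. The siNC array was the lowest, and the other arrays lay close together, less than 1 log2 unit apart. The siRNA difference was 1.72 (3.30-fold) without and -0.12 with 8Br-cAMP. Adding 8Br-cAMP gave 1.39 (2.62-fold) after siNC and -0.46 after siYT. BMP4 did not pass the additive limma model for the siRNA (0.80, SE 0.421, adjusted p = 0.307) or 8Br-cAMP (0.47, SE 0.421, adjusted p = 0.675).

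BMP2 and BMP7 lay under the level filter on all 4 arrays and were not called. BMP2, an osteogenic ligand, ranged from 3.67 in siNC+8Br-cAMP to 4.86 in siNC, and BMP7, known for its role in kidney development, from 3.41 in siYT+8Br-cAMP to 3.83 in siYT. BMP2 was lower with 8Br-cAMP by -1.18 after siNC and -0.92 after siYT, a size that depends on the background at this level. The other BMP and GDF ligands listed, BMP3, BMP5, BMP8A, BMP8B, BMP10, BMP15, GDF2, GDF5, GDF7, GDF9 and GDF10, were under the filter on every array, and GDF6 was above it in siYT alone, at 6.27. None of these 12 was called in the 4 comparisons.

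The 4 ID genes were each higher with 8Br-cAMP, and the windows before their starts are shown because they moved together in that comparison. The table of RefSeq sequences used here, on the GRCh38.p14 build, was matched by symbol for 8 of the 10 members; windows of BMP2 and BMP7 were not used here. For ID1 (chr20:31605039-31605288, plus strand), ID2 (chr2:8681806-8682055, plus strand), ID3 (chr1:23559502-23559751, minus strand) and ID4 (chr6:19837120-19837369, plus strand), the 250 bases before the annotated start read as follows, 5′ to 3′ on the gene's strand. Capitals mark matches, on either strand, to TGACG, the short form of the cyclic AMP response element, and to GGAATG, the core of TEAD sites.
ID1: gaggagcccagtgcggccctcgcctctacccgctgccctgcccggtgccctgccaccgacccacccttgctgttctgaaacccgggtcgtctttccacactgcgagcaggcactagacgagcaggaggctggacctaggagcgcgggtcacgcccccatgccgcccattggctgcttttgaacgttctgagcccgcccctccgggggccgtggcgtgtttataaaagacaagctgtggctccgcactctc
ID2: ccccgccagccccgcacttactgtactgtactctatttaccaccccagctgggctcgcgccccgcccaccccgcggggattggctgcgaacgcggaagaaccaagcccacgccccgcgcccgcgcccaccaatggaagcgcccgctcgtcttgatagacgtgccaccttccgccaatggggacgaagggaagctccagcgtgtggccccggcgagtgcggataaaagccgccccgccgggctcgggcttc
ID3: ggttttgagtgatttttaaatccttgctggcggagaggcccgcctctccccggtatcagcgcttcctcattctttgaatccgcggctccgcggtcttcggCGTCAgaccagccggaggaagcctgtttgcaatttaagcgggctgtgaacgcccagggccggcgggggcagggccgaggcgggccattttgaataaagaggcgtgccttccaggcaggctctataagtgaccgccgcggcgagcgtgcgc
ID4: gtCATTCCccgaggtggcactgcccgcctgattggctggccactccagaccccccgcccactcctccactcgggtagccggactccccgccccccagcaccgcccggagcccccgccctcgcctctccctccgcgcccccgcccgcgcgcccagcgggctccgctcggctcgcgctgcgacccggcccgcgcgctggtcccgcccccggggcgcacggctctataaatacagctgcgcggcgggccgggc

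ID3 held 1 TGACG match, read on the other strand as CGTCA and starting 150 bases before the start, and ID4 held 1 GGAATG match, read as CATTCC and starting 248 bases before it. Over all 35116 such windows, 21.2% held TGACG and 11.9% held GGAATG. The full element TGACGTCA (1.65% of windows) and the GC-rich SMAD1/5 element GGCGCC (16.4%) were in none of the 4. The SMAD box CAGAC (38.0%) occurred once in ID3, where it overlaps the TGACG match, and once in ID4, and the E-box CANNTG (61.8%) once in ID2 and once in ID4. Across the other members' windows the search found GGCGCC in 1 of the 3 windows of BMP4, and TGACG and GGAATG in none of those of BMP4, BMP6, SMAD6 and SMAD7. A match is a description of the letters, and known distal elements lie outside these windows.

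ID2 had the largest siRNA difference without 8Br-cAMP and the largest 8Br-cAMP difference after siNC of the 10 members. It was at 8.84 in siNC, 13.54 in siNC+8Br-cAMP, 13.46 in siYT and 14.25 in siYT+8Br-cAMP. The siNC array was low and the other 3 were high, whichever treatment they had. The siRNA difference was 4.62 (24.6-fold) without 8Br-cAMP, the 11th highest of 9407 genes at the filter, and 0.71 (1.63-fold) with it. The 8Br-cAMP difference was 4.70 (26.1-fold) after siNC, the 12th highest of 9286, and 0.79 (1.73-fold) after siYT. Both large differences start from the same siNC value, which lay above the filter. ID2 rose with the siRNA in the additive limma model (2.67, SE 0.684, adjusted p = 0.0372) and did not pass for 8Br-cAMP (2.75, SE 0.684, adjusted p = 0.079).

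ID3 followed a similar order with smaller sizes. It was at 11.56 in siNC, 14.45 in siNC+8Br-cAMP, 13.05 in siYT and 14.19 in siYT+8Br-cAMP. The arrays with 8Br-cAMP lay above those without it. The 8Br-cAMP difference was 2.89 (7.39-fold) after siNC and 1.14 (2.20-fold) after siYT, and the siRNA difference was 1.49 (2.80-fold) without and -0.26 with 8Br-cAMP. ID3 rose with 8Br-cAMP in the additive limma model (2.01, SE 0.41, adjusted p = 0.0381).

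ID1 and ID4 were higher with 8Br-cAMP and were not higher by 2-fold in siYT. ID1, the member most often used as a readout of BMP receptor activity, was at 10.10 in siNC, 11.93 in siNC+8Br-cAMP, 9.90 in siYT and 10.89 in siYT+8Br-cAMP. The siNC+8Br-cAMP array was the highest. The 8Br-cAMP difference was 1.83 (3.56-fold) after siNC and 0.99 (1.99-fold) after siYT, just short of the 2-fold limit. The siRNA difference of ID1 was -0.20 without and -1.04 (2.06-fold lower) with 8Br-cAMP, and the second was not called after cyclic loess (-0.93) or after centring each array (-0.99). ID4 was at 6.54 in siNC, 8.07 in siNC+8Br-cAMP, 7.03 in siYT and 7.96 in siYT+8Br-cAMP. Its 8Br-cAMP difference was 1.54 (2.90-fold) and 0.94 (1.91-fold), and its siRNA difference was 0.49 and -0.11. Without 8Br-cAMP, ID4 lay under the 95th percentile of its array's negative controls, 6.94 in siNC and 7.29 in siYT. Both of its 8Br-cAMP folds therefore depend on the background. As log2 of the linear value plus 32, its 8Br-cAMP difference was 1.27 after siNC and 0.79 after siYT. For 8Br-cAMP, neither ID1 (1.41, SE 0.333, limma adjusted p = 0.0657) nor ID4 (1.24, SE 0.32, limma adjusted p = 0.0881) passed.

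**Figure D2:**
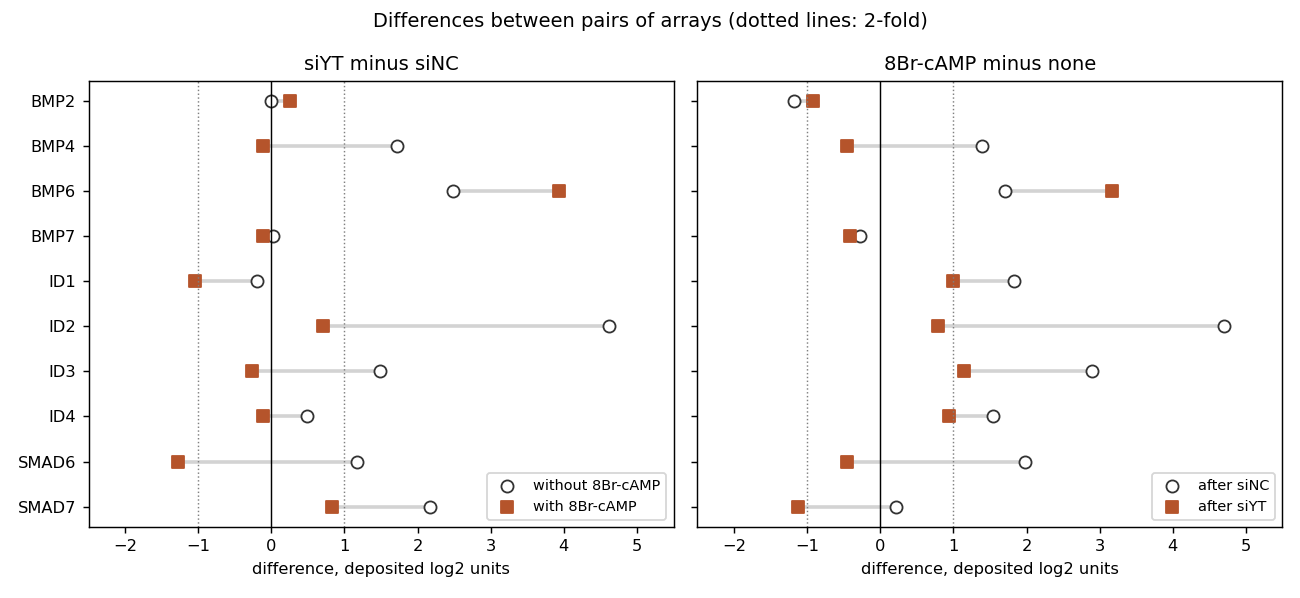
Differences in deposited log2 units are plotted for each member, on the left for siYT minus siNC without (open) and with (filled) 8Br-cAMP, and on the right for 8Br-cAMP minus none after siNC (open) and after siYT (filled), with dotted lines at 2-fold. All members but BMP2 and BMP6 have their filled point to the left of their open point; ID2 moves from 4.62 to 0.71 on the left and BMP6 from 2.48 to 3.94.

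The inhibitory SMADs were both higher in siYT without 8Br-cAMP and parted with it. SMAD6, which competes with SMAD4 and blocks BMP type I receptors, was at 9.71 in siNC, 11.69 in siNC+8Br-cAMP, 10.87 in siYT and 10.42 in siYT+8Br-cAMP. The siRNA difference was 1.17 (2.24-fold higher) without and -1.27 (2.41-fold lower) with 8Br-cAMP, both called, in opposite directions. The 8Br-cAMP difference was 1.98 (3.96-fold) after siNC and -0.45 after siYT. Averaged over the other factor SMAD6 differed by -0.05 (SE 0.488, limma adjusted p = 0.969) with the siRNA and by 0.77 (SE 0.488, limma adjusted p = 0.524) with 8Br-cAMP.

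SMAD7, which recruits SMURF ubiquitin ligases to receptors of both branches, was at 7.58 in siNC, 7.79 in siNC+8Br-cAMP, 9.75 in siYT and 8.62 in siYT+8Br-cAMP. The siYT arrays lay above the siNC arrays. The siRNA difference was 2.17 (4.50-fold) without and 0.83 (1.78-fold) with 8Br-cAMP, and SMAD7 rose with the siRNA in the additive limma model (1.5, SE 0.371, adjusted p = 0.0317). The 8Br-cAMP difference was 0.21 after siNC and -1.12 (2.18-fold lower) after siYT.

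For most members the level with both treatments together was below the sum of the 2 single differences from siNC. This was measured as the change with 8Br-cAMP in siYT cells less the change with it in siNC cells, here called the difference of differences. A negative value means a smaller or opposite 8Br-cAMP difference after siYT. It was called negative for 5 of the 10 members, against 4.82% of all genes, and positive for 1, against 3.57%. The 5 were ID2 (-3.91), SMAD6 (-2.43), BMP4 (-1.85), ID3 (-1.75) and SMAD7 (-1.34), and the positive 1 was BMP6 (1.46). ID2 was the 6th lowest and SMAD6 the 47th lowest of 9750 genes at the filter. ID1 (-0.84) and ID4 (-0.60) were negative and not called. The member median was -1.09, beside 0.01 over all genes. The value takes all 4 arrays, 1 per group, so it could not be tested, and a low value on the siNC array alone makes it more negative in any gene.

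**Figure D3:**
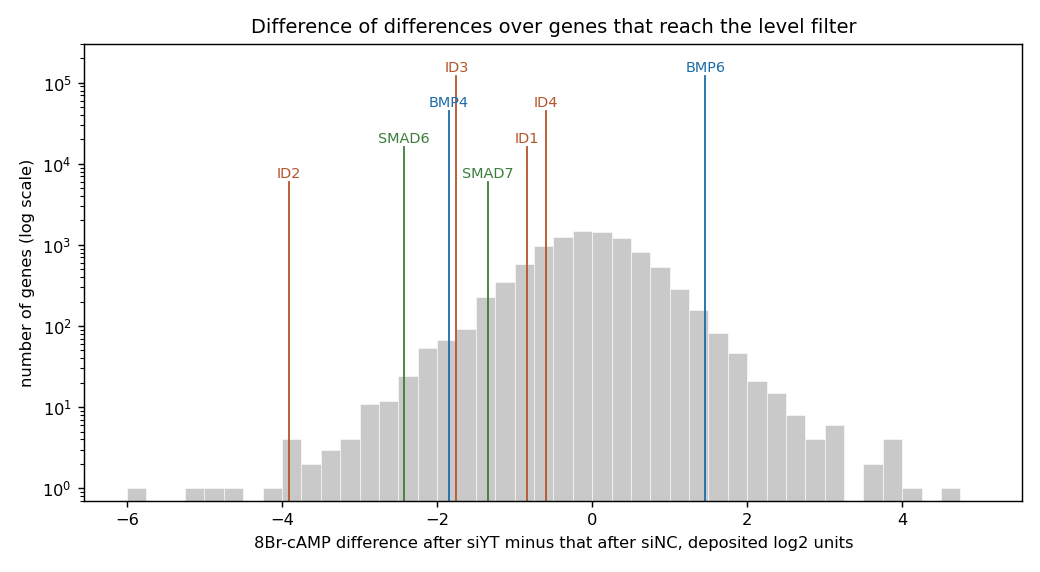
Grey bars count the 9750 genes that reached the level filter (log scale) by their difference of differences in deposited log2 units, and coloured lines mark the 8 members among them by role. ID2 at -3.91 and SMAD6 at -2.43 lie in the sparse lower part of the distribution, and BMP6 at 1.46 is the only one of these 8 members above 0.

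Genes with the most similar pattern were found by Euclidean distance over the 4 arrays after each gene was centred on its mean, among the same 9750 genes, for called members that ranged over at least 2. For ID2 they were TNFSF10, the death ligand TRAIL (distance 0.45), and TSC22D1 (1.28). For BMP6 they were CTNNA2 (0.66) and CREB3L3 (0.70). The pair nearest to ID1 was MAPK4 (0.09), whose highest value of 6.29 did not reach the 95th percentile of its array's negative controls, 6.53, and ADAMTS15 (0.17). The pair nearest to ID3 was the Wnt receptor FZD4 (0.22) and stanniocalcin STC1 (0.28), and that nearest to SMAD7 the matrix protein FBLN2 (0.04) and the Hedgehog mediator GLI3 (0.12). With 4 points per gene such likeness is a description of these arrays.

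The other genes of the pathway were called in both directions. Of 57 listed genes, 54 were analysed here. In siYT without 8Br-cAMP 6 were called higher (11.1%, beside 7.60% of all genes) and 4 lower (7.41%, beside 7.32%), with a median of 0.27. In siYT with 8Br-cAMP 6 were called higher (11.1%, beside 5.52%) and 1 lower (1.85%, beside 5.94%), with a median of 0.16. For 8Br-cAMP after siNC 4 were called higher (7.41%, beside 4.32%) and 3 lower (5.56%, beside 3.74%), with a median of -0.02. After siYT it was 4 higher (7.41%, beside 4.06%) and 4 lower (7.41%, beside 4.15%), with a median of -0.01. The difference of differences was called positive for 6 (11.1%, beside 3.57%) and negative for 5 (9.26%, beside 4.82%), with a median of -0.06. Shares of 54 genes rest on few calls, and those for siYT without 8Br-cAMP lay near the background. This list, too, was chosen with earlier results known. The additive limma model called 4 higher (7.41%, beside 4.30% of all genes by that model) and 3 lower (5.56%, beside 4.67%) for the siRNA. For 8Br-cAMP it called 0 higher (0.00%, beside 1.15%) and 1 lower (1.85%, beside 0.662%).

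Among 10 receptors and co-receptors, 3 were called in any of these comparisons. BMPR1B, a type I receptor of granulosa cells, was at 6.13 in siNC, 6.59 in siNC+8Br-cAMP, 6.52 in siYT and 7.84 in siYT+8Br-cAMP. The last array stood above the others, as it did for BMP6, and BMPR1B was called higher there against either neighbour (1.25 and 1.32). BMPR1B lay under the 95th percentile of its array's negative controls in siNC (6.94) and siYT (7.29), and just above it in siNC+8Br-cAMP (6.53). Both sizes therefore depend on the background. ACVR1, the type I receptor for BMP6 and BMP7, was 1.05 higher in siYT without 8Br-cAMP and 0.35 with it. RGMB, a BMP co-receptor, was at 10.80 in siNC and lower on each other array (8.85 to 9.71). The type II receptor ACVR2A differed by 0.79 and 0.59 with the siRNA and was not called.

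The signal-transducing SMADs SMAD1, SMAD4 and SMAD5 were not called in the 4 comparisons, though the difference of differences of SMAD1 was called negative (-1.11). SMAD9 differed by 1.15 with 8Br-cAMP in siNC cells and by -0.17 in siYT cells. Its difference of differences was also called negative (-1.32). Without 8Br-cAMP, SMAD9 lay under the 95th percentile of its array's negative controls, at 6.38 against 6.94 in siNC and at 7.18 against 7.29 in siYT. The sizes for SMAD9 therefore depend on the background. SMURF2, the ubiquitin ligase that works with SMAD7, was at 15.42 in siNC, 12.43 in siNC+8Br-cAMP, 13.07 in siYT and 11.50 in siYT+8Br-cAMP. The siNC array was the highest and the array with both treatments the lowest. SMURF2 fell with the siRNA (limma adjusted p = 0.023) and with 8Br-cAMP (limma adjusted p = 0.0138). SKIL, a repressor of SMAD-driven transcription, was 0.73 and 0.70 higher with the siRNA and not called.

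Antagonists went in both directions. FST, follistatin, which binds activins and some BMPs, was at 13.79 in siNC, 11.95 in siNC+8Br-cAMP, 10.51 in siYT and 10.33 in siYT+8Br-cAMP, and fell with the siRNA (limma adjusted p = 0.00411). NOG, noggin, an extracellular BMP trap, was at 6.69 in siNC and under the level filter on the other arrays (4.62 to 5.76). It fell with the siRNA (limma adjusted p = 0.017), but its siNC value did not reach the 95th percentile of that array's negative controls, 6.94, and the size call was lost with the filter at 6.95. CHRDL1, a chordin-like antagonist, was 1.13 and 1.35 higher in siYT and rose (limma adjusted p = 0.0321). BMPER, a BMP-binding regulator, differed by 0.87 and 1.39 with the siRNA, and did not pass for it (limma adjusted p = 0.0527). With 8Br-cAMP, BMPER differed by 0.92 after siNC, not called, and by 1.43 after siYT, called. BAMBI, a pseudoreceptor that BMP signalling is known to induce, differed with 8Br-cAMP by 1.90 in siNC cells and by 0.95 in siYT cells, and was not called for the siRNA (0.33 and -0.63).

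**Figure D4:**
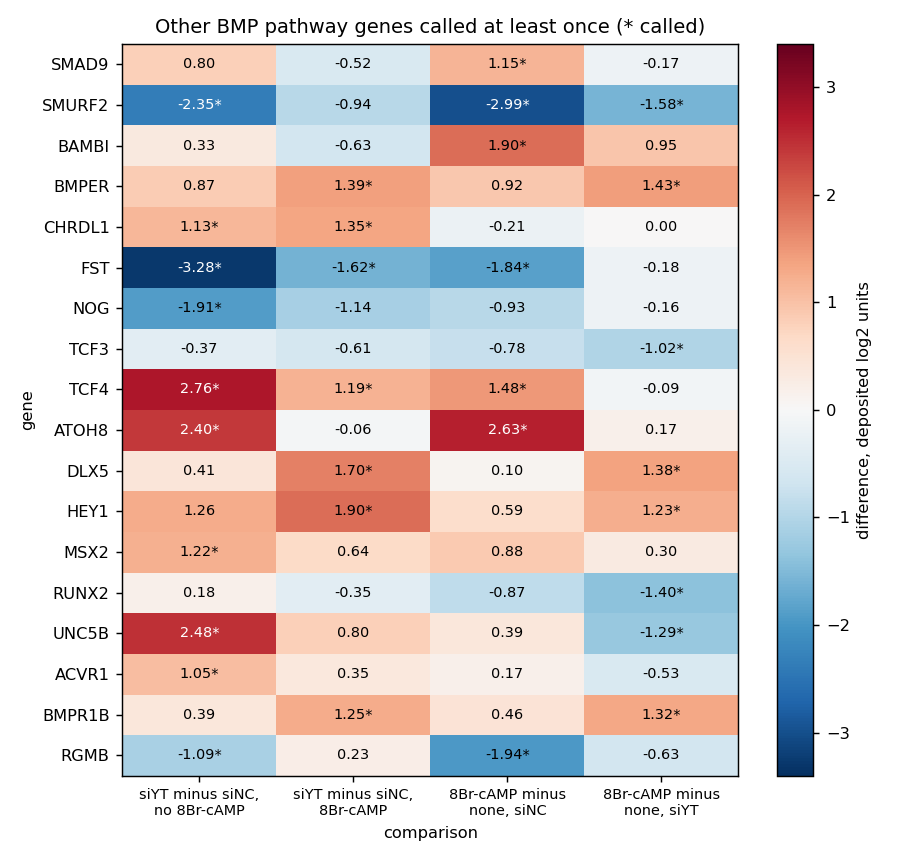
Each cell gives the difference in deposited log2 units of a pathway gene outside the 10 members that was called at least once, for the 4 comparisons in columns, with red for higher, blue for lower and an asterisk for a called value. FST and SMURF2 hold the lowest values, -3.28 and -2.99, and TCF4 the highest, 2.76.

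Of 9 further BMP target genes, ATOH8 had an order like that of ID2. This helix-loop-helix factor was at 4.94 in siNC, 7.56 in siNC+8Br-cAMP, 7.34 in siYT and 7.51 in siYT+8Br-cAMP. Only the siNC value, which lay under the filter, was low, and the difference of differences was -2.46. UNC5B, a netrin receptor, was at 9.75, 10.14, 12.23 and 10.94 in the same order, and rose with the siRNA (limma adjusted p = 0.0309). HEY1, a target of both BMP and Notch signalling, was at 4.82, 5.41, 6.08 and 7.31 and rose with the siRNA (limma adjusted p = 0.0129), though only the last of these values reached the filter. The homeobox gene DLX5 was 1.70 higher in siYT with 8Br-cAMP and 0.41 without. With 8Br-cAMP, DLX5 differed by 0.10 after siNC and by 1.38 after siYT. RUNX2 differed with 8Br-cAMP by -0.87 after siNC, not called, and by -1.40 after siYT. MSX2 was 1.22 and 0.64 higher in siYT without and with 8Br-cAMP, but its highest value, 6.72, was under the filter at 6.95, with which it was not called.

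Among the E proteins that ID proteins bind, TCF4 was at 10.32 in siNC, 11.80 in siNC+8Br-cAMP, 13.07 in siYT and 12.99 in siYT+8Br-cAMP. The siYT arrays lay above the siNC arrays, and TCF4 rose with the siRNA (limma adjusted p = 0.0116). TCF12 differed by 0.84 and 0.81 with the siRNA and was not called. TCF3 was lower with 8Br-cAMP by -0.78 after siNC and by -1.02 after siYT, and it differed by -0.37 and -0.61 with the siRNA.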

How the data were processed

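Total RNA of 4 KGN cultures, 1 per group, was hybridised to Clariom S Human arrays. Per the labels, the authors summarised log2 signals with RMA in the Affymetrix Expression Console; versions and the annotation's genome build are not given in the sources used here. RMA gives the arrays a shared distribution. The number of arrays limits the precision.

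Probe sets naming exactly 1 gene were averaged per gene, which gave 17687 genes. Groups were taken from the sample titles. Differences of deposited log2 values were called by size and level, and an additive model was fitted to all genes with limma 3.58.1 in R 4.3.3, with Benjamini-Hochberg adjustment over all genes and a threshold of 0.05. Its prior has 9.24 degrees of freedom. Tested on simulated data, the fit found the changes put in but made more false calls than its nominal rate, so its adjusted p-values can be too small. The members, gene lists and rules were chosen with earlier results of these data known. Named genes outside the members are the siRNA targets, pathway genes called in any of the 4 comparisons, up to 2 others per role with the largest mean siRNA difference, the 2 nearest genes per member, and cell type markers. Promoter windows came from RefSeq, GRCh38.p14. Alternatives covered scaling, pseudocount, filter, fold limit and variance prior.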

Additional observations from a re-analysis of the deposited data

Results flagged for a closer look

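Members whose differences pointed in opposite directions in the 2 settings, and whose difference of differences was called, are given here; with 1 array per group the difference was not tested. SMAD6 had a difference of differences of -2.43: it differed with the siRNA by 1.17 in medium alone and by -1.27 under 8Br-cAMP, and with 8Br-cAMP by 1.98 after siNC and by -0.45 after siYT. BMP4 had -1.85, with 8Br-cAMP differences of 1.39 and -0.46 and siRNA differences of 1.72 and -0.12, the last of which was 0.03 after cyclic loess. ID3 had -1.75, with siRNA differences of 1.49 and -0.26. SMAD7 had -1.34, with 8Br-cAMP differences of 0.21 after siNC and -1.12 after siYT. In SMAD6 alone were both siRNA differences past 2-fold.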

How the results depend on the processing

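Under 6 alternatives (cyclic loess, centring each array, log2 of the linear value plus 32, no level filter, a filter at 6.95, and a limit of 1.5-fold), 288 of 300 single differences of the members kept their side of the limit, 9 became called and 3 were lost. The sign changed in 2 of the 300, neither called: the siRNA difference of BMP4 with 8Br-cAMP went from -0.12 to 0.03 after cyclic loess, and that of BMP7 without 8Br-cAMP from 0.02 to -0.03 after centring. The filter and fold-limit alternatives reuse the same values, so no sign could change under them. Adding 32 to the linear value keeps the order of any 2 arrays, so there only the difference of differences could change sign. The count of called members changed by over 1.5 times with the 1.5-fold limit: 5 in place of 3 for the siRNA with 8Br-cAMP, and 6 in place of 3 for 8Br-cAMP after siYT. With that limit the pathway genes called for the siRNA were 17 without and 17 with 8Br-cAMP, and for 8Br-cAMP 13 after siNC and 15 after siYT. With no level filter 2756 of all genes, in place of 1484, were called in the difference of differences. With the 1.5-fold limit the counts of all genes were 4679 and 4124 for the siRNA, 3517 and 3418 for 8Br-cAMP, and 3726 for the difference of differences. Centring each array moved the share of called genes with a positive difference of differences from 42.5% to 53.9%; the 6 called members stayed 1 positive and 5 negative. The additive limma model called 3 members for the siRNA and 2 for 8Br-cAMP, but 0 of all genes for either with the linear value plus 32, where 3964 and 2769 of all genes and 2 and 5 members had an unadjusted p under 0.05 and BMP6 had adjusted p = 0.127 for the siRNA and 0.28 for 8Br-cAMP. For 8Br-cAMP it called 4 members after cyclic loess (327 of all genes higher and 271 lower), 4 after centring (299 and 216), 4 with an intensity trend (291 and 217) and 5 in the fit on genes past the filter (382 and 320), against 204 and 117 in the model as reported. The added members were ID1 and ID2, and ID4 in the last; the cause was not tested. No paired analysis was possible because each group has 1 array. No array could be left out, since the additive model would keep no residual degrees of freedom.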
